A study of Rattus norvegicus with 6 samples.

Results

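The genes described here encode core and regulatory proteins of pre-mRNA splicing in neural progenitors of the rat. They were selected by a rule on names, as the gene names that begin with Srsf and a digit, Hnrnp, Snrp, Sf3a or Sf3b, U2af, or Prpf and a digit, and the rule uses no measured value. The tables name 17337 genes, and 63 of these met the rule, which is 0.363% of the names. They fall into 6 classes by name, with 11 SR proteins, 18 hnRNPs, 11 Sm and U snRNP proteins, 2 U2AF proteins, 9 proteins of the SF3 complex and 12 PRPF proteins.

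PolyA-selected RNA was sequenced from cortical neural progenitors of Sprague Dawley rats at embryonic day 14, for which the labels name no transgene and no treatment, and which were expanded in a culture medium with the growth factors bFGF and EGF until their second passage. There was 1 condition, with 2 biological replicates, A and B. Replicate A gave the libraries A1 and A2 and replicate B gave B1 and B2, which are taken here as technical libraries because the labels do not say whether they came from separate cultures. Markers that differed between B1 and B2 are given below. The 2 Start-seq samples of the study, which measure short capped RNA from the nucleus, were not analysed here. Levels are in FPKM, which corrects the number of fragments for transcript length and sequencing depth, so that levels of different genes can be set side by side. Each mean is over the 2 replicates after averaging the libraries of each, and with n = 2 and 1 condition no test between groups was made.

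Splicing removes introns from the transcripts made by RNA polymerase II, and is carried out by the spliceosome, a machine built from small nuclear ribonucleoproteins (snRNPs) and many further proteins. A ring of Sm proteins sits on the RNA of most snRNPs, U2AF reads the end of the intron, the SF3 proteins hold the U2 snRNP at the branch point, and the PRPF proteins include parts of the U4/U6.U5 tri-snRNP and the factors that activate it. SR proteins and hnRNPs bind the exons and introns around these sites and favour or oppose their use, and in developing cortex a change in their balance, and in that of the related PTBP, RBFOX and NOVA proteins, accompanies the passage from progenitor to neuron.

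The promoters of 3 of the most abundant members, 1 each from the SR proteins, the hnRNPs and the Sm proteins, are printed as RefSeq gives them on the GRCr8 build, from 250 bases before to 50 bases after the annotated start, each 5′ to 3′ on the strand of its gene. They are chr6:106336506-106336805 on the plus strand for Srsf5, chr4:81875837-81876136 on the minus strand for Hnrnpa2b1 and chr1:87926159-87926458 on the plus strand for Snrpd2. Capitals mark matches, on either strand, to the motifs that are counted over all members after the expression values. None of the 3 windows holds a TATA box, TATAAA.
Srsf5: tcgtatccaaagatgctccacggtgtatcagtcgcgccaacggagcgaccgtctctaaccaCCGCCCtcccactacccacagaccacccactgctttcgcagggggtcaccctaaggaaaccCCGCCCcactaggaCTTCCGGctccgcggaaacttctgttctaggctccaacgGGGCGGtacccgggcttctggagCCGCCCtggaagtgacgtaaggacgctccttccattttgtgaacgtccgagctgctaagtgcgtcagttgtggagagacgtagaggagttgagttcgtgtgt
Hnrnpa2b1: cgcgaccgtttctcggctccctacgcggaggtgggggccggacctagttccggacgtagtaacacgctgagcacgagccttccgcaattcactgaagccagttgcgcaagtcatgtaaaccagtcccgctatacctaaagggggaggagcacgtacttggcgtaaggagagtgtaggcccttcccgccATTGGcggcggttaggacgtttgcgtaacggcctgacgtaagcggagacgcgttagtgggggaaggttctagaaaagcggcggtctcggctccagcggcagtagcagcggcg
Snrpd2: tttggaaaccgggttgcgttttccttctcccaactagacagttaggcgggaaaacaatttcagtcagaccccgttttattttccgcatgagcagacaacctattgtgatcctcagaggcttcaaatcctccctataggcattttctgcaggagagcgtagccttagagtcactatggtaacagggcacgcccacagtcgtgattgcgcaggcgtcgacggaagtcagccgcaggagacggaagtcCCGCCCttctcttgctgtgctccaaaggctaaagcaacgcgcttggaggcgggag

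All 63 members were detected in every library, and all had a mean of at least 1 FPKM. Of the members, 61 had a mean of at least 10 FPKM, 32 had a mean of at least 100 FPKM, and 29 were among the 1000 most abundant gene names. Their median was 103 FPKM, beside a median of 3.83 FPKM over all names and of 16.6 FPKM over the 10481 names with a mean of at least 1 FPKM, and 9.78% of these 10481 lay above the median member. Together the members held 1.75% of all TPM, a measure of the share of transcripts, in A1 and 1.65% in A2, and they held 1.59% in B1 and 1.44% in B2, so that both libraries of replicate A lay above both of replicate B. The mean share was 1.61% ± 0.133 (SD, n = 2). The hnRNPs held 0.706% ± 0.0346, the Sm and U snRNP proteins 0.331% ± 0.0200 and the SR proteins 0.292% ± 0.0446.

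**Figure D1:**
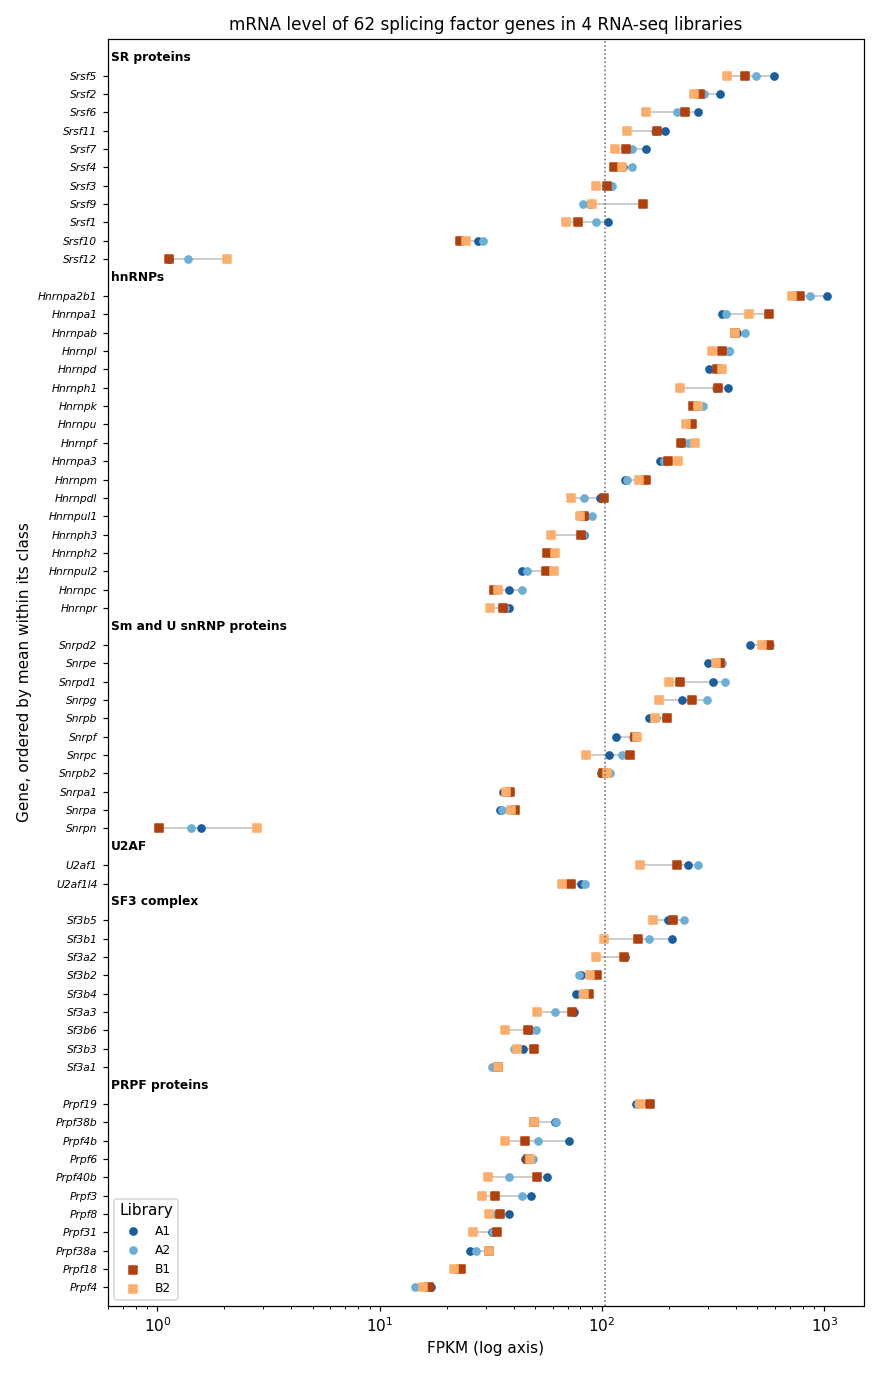
FPKM of 62 of the 63 members on a log axis, 1 line for each gene, grouped by class and ordered by mean, with circles for the libraries of replicate A and squares for those of replicate B, a grey bar from the lowest to the highest library and a dotted line at the median member of 103 FPKM. Srsf12 and Snrpn lie near 1 FPKM, apart from the other members shown, which have means between 15.9 and 844 FPKM.

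Library B2 was shallower than the others. The coverage that corresponds to 1 FPKM was 24.3 and 22.7 in the libraries of A, 24.4 in B1 and 6.83 in B2, so that B2 had 28.1% of the depth of B1. The markers of neural progenitors were present, with all 13 at 1 FPKM or more, and of these 8 were higher in A without overlap, 0 were higher in B and 5 overlapped. Fabp7 and Hes5 were among the 3 that were at least 1 log2 unit lower in B. The summed FPKM of 13 mesenchymal and meningeal markers was 1453 and 1538 in the libraries of A and 3293 and 4976 in those of B, and 12 of the 13 were higher in both libraries of B. Of the 7 markers of the oligodendrocyte lineage 5 had at least 1 FPKM, and Olig1 was over 1 log2 unit higher in B. Some markers also differed between B1 and B2. Aldh1a2 was at 71.2 and 369 FPKM, Foxc1 at 29.4 and 115, and Olig1 at 523 and 237. In A1 and A2 they were at 58.3 and 60.2, 14.2 and 14.1, and 172 and 195. Other markers were close in B1 and B2, such as Lum at 147 and 133 and Pdgfra at 59.5 and 59.4. Whether the libraries of a replicate differed in more than technique was not tested. Of 10 proliferation genes 8 were higher in B without overlap, with a median difference of 0.60, and 0 reached 1 log2 unit. Over all names with at least 1 FPKM 32% were higher in A without overlap and 28.1% were higher in B. Of the same names 6.2% differed by at least 1 log2 unit without overlap. None of the 6 markers of microglia and none of the 6 of endothelium reached a mean of 1 FPKM. In bulk samples fewer cells of a type and less RNA per cell cannot be told apart, and the part of these marker levels in the differences between A and B given for the members was not tested.

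The hnRNPs, abundant RNA-binding proteins that coat nascent transcripts, had the highest median of the 6 classes, 219 FPKM, with all 18 above 10 FPKM and 11 above 100 FPKM. Hnrnpa2b1, which also carries RNAs along neuronal processes, was the most abundant of the 63 members and ranked 110 among all names. It occupies positions 81237496 to 81241281 of chromosome 4 in rn6 (minus strand). It was at 1029.6 and 858 FPKM in the libraries of A and at 774 and 717 in those of B, a mean of 844 ± 140 (SD, n = 2). Hnrnpa1, a paralog of it and a repressor of exon inclusion, was at 346 and 359 FPKM in A and at 563 and 459 in B, a mean of 432 ± 112. The libraries of A and B did not overlap for either gene, and they moved in opposite directions. Hnrnpa2b1 exceeded Hnrnpa1 2.68-fold in A and 1.46-fold in B. Hnrnpa3, the third of these paralogs, had a mean of 197 ± 16.5 FPKM, below both in every library.

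Hnrnpab and Hnrnpd are members of a family that binds AU-rich RNA, and Hnrnpdl is their relative. Hnrnpab had a mean of 409 ± 17.6 FPKM, Hnrnpd of 330 ± 12.2 and Hnrnpdl of 89.0 ± 2.05. With 2 annotated copies of Hnrnpab added up, its lowest library (396) lay above the highest of Hnrnpd (348), and Hnrnpdl was below both in every library. Among the hnRNPs that bind G-rich RNA, Hnrnph1 had 313 ± 48.2 FPKM, Hnrnpf 240 ± 6.58, Hnrnph3 76.1 ± 9.37 and Hnrnph2 59.7 ± 0.988. In B2 the level of Hnrnph1 (225) was below that of Hnrnpf (263), so that the order of the upper pair did not hold in every library. Hnrnpu, a protein of the nuclear scaffold, was close in all libraries, at 246 and 248 FPKM in A and 253 and 238 in B. Its relatives Hnrnpul1 (84.1 ± 4.12) and Hnrnpul2 (51.7 ± 9.73) were lower. Hnrnpl, a reader of CA-rich RNA, was at 351 ± 31.4 FPKM. The lowest of the class by mean was Hnrnpr, at 35.5 ± 2.71 FPKM, and its relative Syncrip, which is no member by name, was at 19.0 ± 1.77. Of the other hnRNPs Hnrnpk, which binds C-rich RNA, had 271 ± 9.50 FPKM with overlapping libraries, and Hnrnpm had 140 ± 16.4 with both libraries of B above those of A.

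The SR proteins bind exons through RNA recognition motifs and recruit the spliceosome through domains rich in arginine and serine. Their median was 124 FPKM. Srsf5 was the highest, at 595 and 494 FPKM in A and 441 and 363 in B, a mean of 473 ± 101, and all libraries of A lay above those of B. Its gene occupies positions 104611026 to 104615302 of chromosome 6 in rn6 (plus strand). Srsf2, also known as SC35 and a marker of nuclear speckles, was next at 291 ± 31.9 FPKM, and Srsf6 followed at 220 ± 33.5. Within the group of relatives Srsf4, Srsf5 and Srsf6, Srsf5 was 3.81-fold above Srsf4 and 2.15-fold above Srsf6 on the means. Srsf7 (134 ± 18.8) exceeded its relative Srsf3 (105 ± 7.65), the smallest SR protein, in every library.

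Srsf1, the founding SR protein, and its relative Srsf9 changed places between the replicates. Srsf1 was at 106 and 94.0 FPKM in A and at 77.7 and 68.6 in B, and Srsf9 was at 88.3 and 81.7 in A and at 153 and 90.0 in B. Srsf1 was thus the higher of the pair in both libraries of A and the lower in both of B. The height of Srsf9 in replicate B rested on B1, since B2 lay close to the libraries of A. Srsf12 was the lowest of the 63 members, at 1.12, 1.37, 1.13 and 2.06 FPKM in A1, A2, B1 and B2, a mean of 1.42 ± 0.246. Its relative Srsf10, which acts as a repressor when dephosphorylated, had 26.1 ± 3.27 FPKM and so exceeded it 18.4-fold. The remaining SR proteins were Srsf4 (124 ± 8.52) and Srsf11 (168 ± 21.2).

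Of the Sm proteins, which form the ring on the snRNA, Snrpd2 was the most abundant, at 463 and 567 FPKM in A and 564 and 526 in B, a mean of 530 ± 21.2 with overlapping libraries. Snrpe followed with 327 ± 5.64 FPKM, and the class had a median of 134 FPKM. Snrpd1, the partner of Snrpd2 in the ring, was at 317 and 358 FPKM in A and at 225 and 199 in B, a mean of 275 ± 88.6. This was a difference of -0.67 on the log2(FPKM + 1) scale, the largest of the 63 members in either direction, and the libraries did not overlap. The gene occupies positions 1866080 to 1876613 of chromosome 18 in rn6 (plus strand). Snrpb2 (103 ± 0.420), a protein of the U2 snRNP, stood 2.77-fold above Snrpa (37.4 ± 3.31), its counterpart in the U1 snRNP. Snrpg (240.1 ± 31.4) and Snrpf (134 ± 11.4) of the ring, Snrpc (112 ± 4.69) of the U1 snRNP and Snrpa1 (37.5 ± 0.422) of the U2 snRNP completed the class, and of these only Snrpf had libraries that did not overlap, with B higher.

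Snrpb encodes the Sm B protein, and Snrpn encodes Sm N, which takes its place in neurons and is expressed from an imprinted locus. Snrpb was at 162 and 175 FPKM in A and 195 and 173 in B, and Snrpn at 1.57 and 1.41 in A and 1.02 and 2.81 in B. On these values Snrpb exceeded Snrpn 104-fold. The Snrpn span, on the minus strand of chromosome 1 of rn6 from 195074328 to 195096460, lies wholly within that of Snurf on the same strand, however, and the known transcript of the locus codes for both proteins. Snurf was listed at 59.3 and 62.3 FPKM in A and at 52.6 and 53.5 in B. Summed, the locus had 58.6 ± 5.21 FPKM, of which 2.90% was listed under Snrpn. How the authors' estimate divided the reads between the names was not tested, so the level of Snrpn alone is uncertain.

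The same holds for Hnrnpc, a protein that binds stretches of U in introns. Its span, on the minus strand of chromosome 15 from 28486607 to 28517353, is covered to 99.8% by LOC100911576 on the same strand. Hnrnpc was listed at 38.0 and 43.7 FPKM in A and 32.6 and 33.9 in B, and LOC100911576 at 348 and 397 in A and 331 and 290.0 in B. The sum was 379 ± 49.3 FPKM. With the sum Hnrnpc would rank 228 among all names and with its own value it ranked 2898. Hnrnpab has 2 annotated copies on chromosome 10, on the minus strand from 34955716 to 34961608 and from 37049402 to 37055294, and the tables gave the copies nearly the same value in each library, 202.6 FPKM for each in A1. The value of Hnrnpab given above is the sum of both. By 1 copy alone, at 198 to 219 FPKM, Hnrnpab would lie below Hnrnpd in every library, so that the order of these genes depends on the sum.

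**Figure D2:**
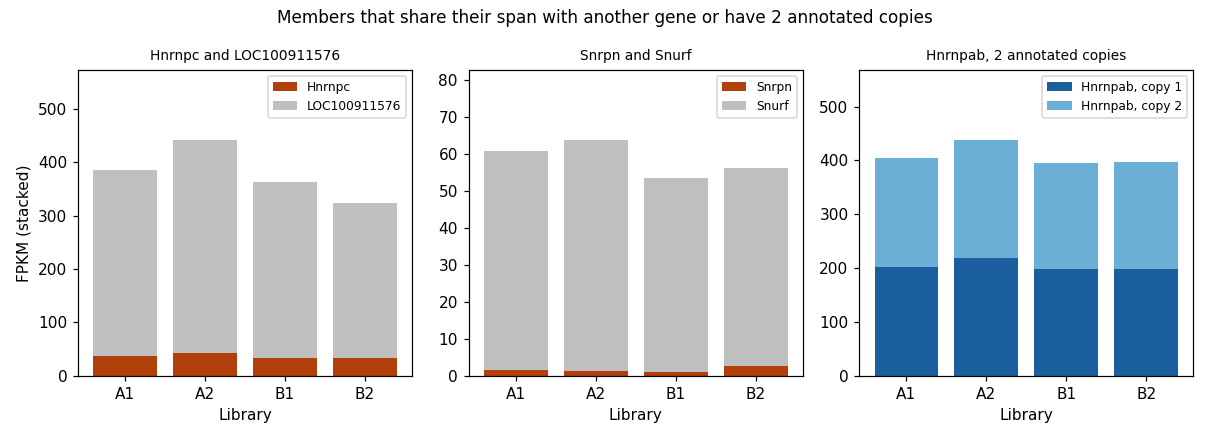
FPKM in each library, stacked, of Hnrnpc with LOC100911576, of Snrpn with Snurf, and of the 2 annotated copies of Hnrnpab. Most of the FPKM of the first 2 loci is listed under the other name, while the copies of Hnrnpab have equal shares.

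U2AF and the SF3 complex act at the 3′ end of the intron. U2af1, the small subunit of U2AF that contacts the last bases of the intron, was at 242 and 271 FPKM in A and 218 and 148 in B, a mean of 220 ± 51.9. Its relative U2af1l4 had 75.6 ± 9.04 FPKM, 2.91-fold less, and for both genes the libraries of A lay above those of B. The gene for the large subunit, U2af2, was not analysed here.

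Of the SF3 genes, which had a median of 81.9 FPKM, Sf3b5 was the highest at 202 ± 19.1, and Sf3a1 the lowest at 33.5 ± 0.838. Sf3b1, the large scaffold that holds the branch point and a frequent target of mutation in blood cancers, was at 207 and 163 FPKM in A and 145 and 102 in B, a mean of 154 ± 43.5. Its gene occupies positions 61594620 to 61634510 of chromosome 9 in rn6 (minus strand). Its libraries did not overlap and its difference of -0.58 was the largest of this class. Sf3a2, of the SF3A part, had 126 FPKM in each of the first 3 libraries and 94.1 in B2, so that its lower mean in B came from B2. The other 5 members of the complex had means from 43.7 (Sf3b3) to 85.8 FPKM (Sf3b2). Proteins of 1 complex thus had mRNA levels that spanned 33.5 to 202 FPKM.

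The PRPF proteins had the lowest median, 36.4 FPKM, and only Prpf19 lay above 100 FPKM. Prpf19, the ubiquitin ligase that is needed to activate the spliceosome, was at 142 and 145 FPKM in A and 164 and 148 in B, a mean of 150 ± 8.94. Prpf38b followed at 55.6 ± 8.61. Prpf4b, a kinase of the tri-snRNP, was at 71.2 and 51.3 FPKM in A and 44.9 and 36.7 in B without overlap, a difference of -0.57. Prpf40b, which binds the early spliceosome, was at 56.6 and 38.1 FPKM in A and 50.8 and 30.8 in B, a mean of 44.1 ± 4.64 with overlapping libraries. Prpf4, of the tri-snRNP, was the lowest at 15.9 ± 0.373. Prpf8, the scaffold at the heart of the spliceosome, had 34.3 ± 2.19 FPKM with overlapping libraries. The remaining members of the class had means from 22.2 (Prpf18) to 46.9 FPKM (Prpf6), and among them Prpf3, of the tri-snRNP, was at 47.9 and 43.6 in A and 33.1 and 28.9 in B, a difference of -0.55 without overlap.

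The next question was how far the members differed between the replicates. A gene was counted as differing where its mean reached 1 FPKM, its replicates were 1 or more log2 units apart and no library of A lay among those of B. Log2 values were taken after adding 1 to the FPKM, and so understate changes at low levels. None of the 63 members met this, beside 650 of the 10481 names with at least 1 FPKM (6.2%). At a mean of at least 10 FPKM it was 0 of 61 members beside 4.99% of 6636 names. At a difference of at least 0.58, 1 member (Snrpd1, 1.59% of the members) was counted beside 16.5% of names, and Sf3b1, at -0.579 before rounding, lay just under this limit. No test between replicates was possible, and these counts are descriptions. The median absolute difference was 0.18 for the members, 0.24 for the 10481 names and 0.21 for those at 10 FPKM or more. Of the members, 50 had a level in B between 0.8 and 1.25 times that in A, for which no share over all names is given here.

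The signed differences leaned to replicate A. Their median was -0.09 over the members, beside -0.03 over the 10481 names. All libraries of A were above those of B for 23 members (36.5%), beside 32% of names, and all libraries of B were above those of A for 12 (19.0%), beside 28.1% of names. The other 28 members had overlapping libraries. The lowest of the 4 libraries was B2, the shallow library, for 32 members (50.8%), beside 34% of names. For 42 members (66.7%) the larger of the differences between libraries of a replicate exceeded that between the replicates, beside 53.5% of names. The median absolute difference of the members was 0.12 between the libraries of A and 0.15 between those of B, beside 0.18 between the replicates. The values within a replicate compare single libraries, and for the count the larger was taken, while those between replicates compare means. The measures are thus unlike. The part of the depth of B2 in the lean to A was not tested. Without B2 the median over the members was -0.04.

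**Figure D3:**
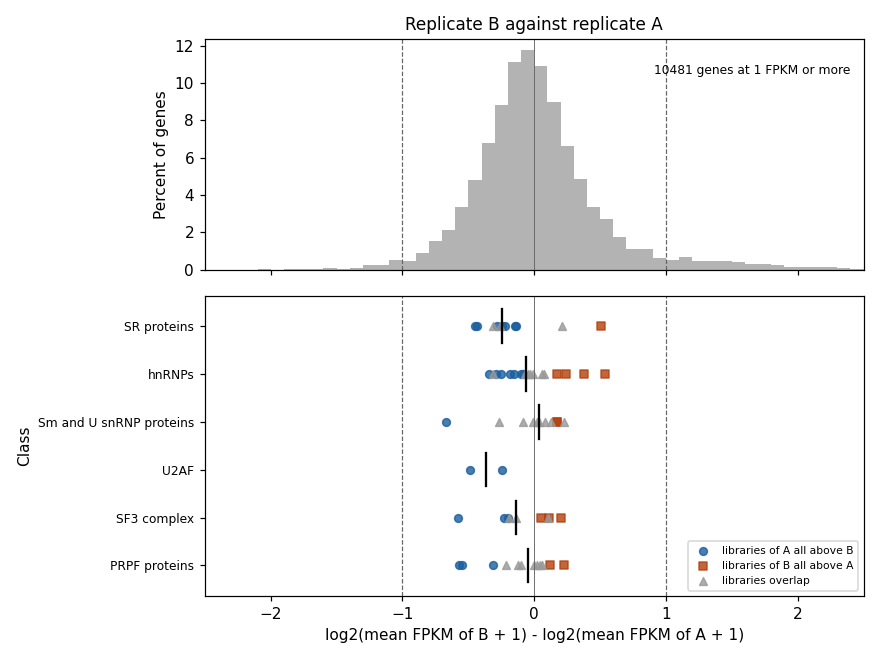
Difference between replicate B and replicate A on the log2(FPKM + 1) scale, above as the percent of 10481 genes in bins and below for each member by class, with a black bar at the median of the class and dashed lines at 1 log2 unit in either direction. All 63 members lie between the dashed lines, from -0.67 (Snrpd1) to 0.53 (Hnrnpa1), and 21 genes beyond 2.5 log2 units are outside the axis.

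By class the differences were as follows, to be read beside the 32% of all names that were higher in A and the 28.1% that were higher in B. Both U2AF proteins were higher in A, with a median of -0.36, and of -0.20 without B2. For 7 of the 11 SR proteins all libraries of A lay above those of B, for 1 (Srsf9) the reverse held, and the median difference was -0.25. The 7 were Srsf1 (-0.45), Srsf2 (-0.22), Srsf3 (-0.15), Srsf4 (-0.14), Srsf5 (-0.44), Srsf7 (-0.28) and Srsf10 (-0.25). The median of the SR proteins was -0.30 with TPM, -0.24 with the libraries scaled to a common median and -0.18 without B2, and the count was 8 with TPM and 7 with the scaling. With TPM 37.1% of all names were higher in A, and their median difference was -0.07. The hnRNPs were divided, with 7 higher in A, 4 higher in B and a median of -0.06, and the Sm and U snRNP proteins had 1 higher in A, 2 higher in B and a median of 0.04, or of 0.06 without B2. For the SF3 complex 3 of 9 members were higher in each replicate, with a median of -0.14 that became 0.05 without B2. For the PRPF proteins 3 of 12 were higher in A and 2 in B, with a median of -0.05 that became 0.03 without B2. The differences between classes were not tested.

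The kinases that phosphorylate the domains of SR proteins were examined beside them. Of 8 listed kinases 7 had at least 1 FPKM, and Srpk3 had less. Clk1, the most abundant, was at 278 and 239.7 FPKM in A and 202 and 108 in B, a difference of -0.74 without overlap. The 7 kinases had a median difference of -0.39, with 3 higher in A without overlap, 0 higher in B and 6 with the lowest value in B2. Over all names with at least 1 FPKM these shares were 32%, 28.1% and 34%. The median of the kinases was -0.08 without B2 and -0.79 without B1, so that the value depended on which library of B was used.

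**Figure D4:**
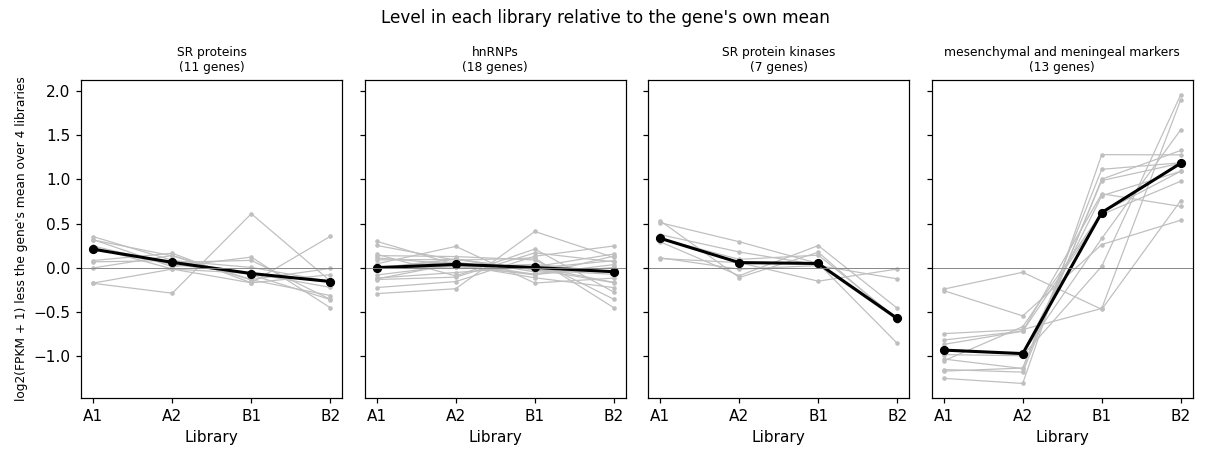
Level of each gene in the 4 libraries as log2(FPKM + 1) less the mean of the gene, with grey lines for genes and a black line for the median of the group, for the SR proteins, the hnRNPs, the SR protein kinases and the mesenchymal and meningeal markers. The median of the SR proteins falls from the libraries of A to those of B by a small amount, the kinases are low in B2 above all, the hnRNPs stay near 0, and the markers are higher in both libraries of B.

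Other genes of splicing were described by the same counts. In 5 further lists 138 of 151 genes were found in the tables, 131 had a mean of at least 1 FPKM, and 0 were counted as differing at 1 log2 unit. Of the 131, 45 were higher in A without overlap, 12 were higher in B, 74 overlapped, and B2 was the lowest library for 77, with a median difference of -0.10. Over all names with at least 1 FPKM 32% were higher in A, 28.1% were higher in B, 34% were lowest in B2 and 6.2% differed by 1 log2 unit. Of the 56 other core spliceosome genes 18 were higher in A and 4 in B, and the highest was Ddx39b, a helicase that also links splicing to mRNA export, at 512 ± 91.4 FPKM. The exon junction complex, which marks spliced mRNA, had all 8 of its genes above 1 FPKM, with Acin1 (151 ± 25.5), Rnps1 (137 ± 11.8) and the helicase Eif4a3 (120 ± 2.76) as the highest, and 2 were higher in A and 0 in B. For the 15 genes of snRNP assembly the highest was Strap (115 ± 3.58), a partner of the SMN complex, and 4 were higher in A and 2 in B.

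Other regulators of splicing, among them the PTBP, RBFOX and NOVA proteins, were set beside the members. The tables list 51 such regulators, of which 45 had at least 1 FPKM. Of these 18 were higher in A and 6 in B without overlap, beside 32% and 28.1% of all names with at least 1 FPKM. Rbm39 (295 ± 84.2) and Pcbp2 (268 ± 10.7) were among the highest regulators. Ptbp1, the polypyrimidine tract binding protein of progenitors, was at 105 and 103 FPKM in A and 134 and 143 in B, and Ptbp2, its counterpart in young neurons, at 38.4 and 43.1 in A and 32.1 and 31.4 in B. The libraries did not overlap for either, Ptbp1 being higher in B and Ptbp2 in A. Ptbp1 exceeded Ptbp2 2.55-fold in A and 4.37-fold in B, and Ptbp3 was low at 1.77 ± 0.0227 FPKM. Rbfox2, a reader of GCATG in introns, was at 6.72 and 6.22 FPKM in A and 13.2 and 12.3 in B, a difference of 0.89. Its relatives Rbfox3, which is found in mature neurons and had 3.62 and 3.34 FPKM in A and 3.09 and 1.95 in B, and Rbfox1 (0.841 ± 0.0505) were lower in every library. Nova1, a regulator of neuronal exons, was at 8.58 and 10.2 FPKM in A and 6.52 and 5.18 in B, above Rbfox2 in both libraries of A and below it in both of B. Srrm2, a large scaffold of nuclear speckles, had 159 ± 42.7 FPKM and its relative Srrm1 112 ± 25.5, while Srrm3 had 2.62 ± 0.317. Of 13 neuron markers 10 had at least 1 FPKM, and 6 of these were higher in A and 1 in B without overlap. These counts are to be read beside the same 32% and 28.1% of all names. The part of the marker levels in the differences of Ptbp1, Ptbp2, Rbfox2 and Nova1 was not tested.

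The promoters of the members were searched for 6 motifs on both strands, each counted by itself whether or not it overlapped another. RefSeq held 65 promoters for 61 members. A CCAAT box, CCAAT, was in 55.4% of the promoters of members, beside 37.5% of all 33469 promoters and 38.9% of the 5442 promoters of genes with at least 10 FPKM. An ETS site, CCGGAAG, was in 30.8% of the promoters of members, beside 8.75% of all and 21.4% of those at 10 FPKM or more. The GC box, GGGCGG, was in 56.9% of them, beside 33.1% and 66.3%, and the TATA box, TATAAA, in 12.3%, beside 14.2% and 6.19%. The NRF1 site, GCATGCGC, was in 6.15% beside 2.47% and 6.17%, and the YY1 site, AAGATGGCG, in 3.08% beside 1.73% and 4.83%. Of the printed promoters that of Srsf5 held 4 GC boxes and 1 ETS site, that of Hnrnpa2b1 held 1 CCAAT box and that of Snrpd2 held 1 GC box. The CCAAT box of Hnrnpa2b1 begins 62 bases before the start, on the strand opposite to the gene. These are matches of letters, and the shares were not tested.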

How the data were processed

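PolyA RNA-seq tables of 4 libraries were used, 2 from each of 2 biological replicates, grouped by the sample titles. Per the labels the reads were trimmed with cutadapt and the tools include HISAT, STAR and StringTie on rn6, and the study's methods name STAR for alignment and Rsubread and DESeq2 for FPKM, while the tables are laid out as StringTie writes them. Versions are not given in the sources used here. The FPKM values were deposited by the authors and used as they are. The TPM values, also made by the authors, are scaled to the same total in each library. The deposited coverage, a mean read depth not scaled for library depth, was divided by FPKM to compare depth. Total read numbers were not used, and these tables hold no counts.

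The rows of a name were added up, libraries were averaged within a replicate, and differences are on the log2(FPKM + 1) scale, with a pseudocount of 1. The rule for counting genes was tried on simulated libraries only, and its error rate in these data is not known. The rule for the members, the lists of other splicing genes and the markers were chosen with earlier results of these data known. Named in the text are, of each class, the 3 highest members and the lowest, members of paralog sets, members with several loci, of each other list the 3 highest, and the PTBP, RBFOX, NOVA and SRRM families. A few genes that these rules would name are not reported here. Genes named in other respects were chosen after their values were seen. Alternatives were other thresholds, TPM, a pseudocount of 0.1, scaling to a common median, the largest row of a name, the mean of log2 values, and replicates or library B1 or B2 left out. Promoters are those of RefSeq on GRCr8, and no protein sequence is shown. Python 3.11.15, pandas 2.3.3, numpy 2.4.6 and matplotlib 3.10.9 were used.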

Additional observations from a re-analysis of the deposited data

Results flagged for a closer look

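For 4 members and 1 measure of depth, 1 of the 4 libraries lay far from the other 3, by the gap to its neighbour as a share of the whole range. Chance alone would give this for about 1 in 20 of the 65 quantities examined if the libraries were independent, which they are not, since they come in pairs of the same replicate. Hnrnph3 was at 58.8 FPKM in B2 and between 80.3 and 83.1 in the others. Sf3a2 was at 94.1 FPKM in B2 and between 125.5 and 126.3 in the others. Srsf9 was at 153 FPKM in B1, and between 81.7 and 90.0 in the others. Sf3a1 was at 31.9 FPKM in A2 and between 33.8 and 34.1 in the others, a small difference. The depth, as coverage per FPKM, was 6.83 in B2 and between 22.7 and 24.4 in the others.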

How the results depend on the processing

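Of 62 alternative values of 22 results 53 kept their direction and stayed within a set spread, 7 moved further and 2 changed sign. The spread was that between replicates or, for counts, 1.5 times. For median differences it was the SD over pairings of a library of A with a library of B, which holds the gap between B1 and B2. Without B2, an alternative chosen after seeing the data, the median difference turned from -0.14 to 0.049 for the SF3 complex and from -0.048 to 0.030 for the PRPF proteins. The median of the members was 103 FPKM, moved to 172.6 in TPM, which is another unit, and to 102.5 without B2, and it ranged from 99.7 to 100.2 with 1 replicate left out. The count of members differing between replicates was 0, and 1 at a difference of at least 0.58. The ratio of Snrpn to Snrpb was 0.00962, and 0.00702 without B2. The median difference of the SR protein kinases was -0.39, and -0.79 without B1 and -0.08 without B2, both also chosen after seeing the data. The value without B2 was counted as kept because the spread for the kinases was 0.40. Leaving out a replicate gave a share of TPM between 1.52% and 1.70%. TPM counted 757 names as differing and the scaled libraries 652, with 650 in FPKM. Depth limits B2 most, and genes near 1 FPKM such as Srsf12 and Snrpn. With 2 replicates of 1 condition no test was possible. No paired analysis was possible because there is 1 condition, and the Start-seq samples that share the letters A and B measure another RNA and were not analysed here.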

Other observations

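Within the span of Hnrnpk, which lies on chromosome 17 of rn6 in plus orientation, the tables list the miRNA gene Mir7a-1 on the same strand, from 6675016 to 6675112. Its FPKM was 12.4 and 11.6 in A and 5.92 and 4.91 in B, a difference of -1.02 without overlap, while Hnrnpk was at 271 and 284 in A and 257 and 272 in B, a difference of -0.07. Reads of the host transcript and of the miRNA precursor cannot be told apart here, and Mir7a-1 was named after its values were seen.

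Of the members 10 have a neighbour that starts within 1000 bp on the opposite strand, and 9 of these neighbours had a mean of at least 1 FPKM. Psenen, a subunit of gamma-secretase, starts 124 bp from U2af1l4 and had 282 ± 39.0 FPKM beside 75.6 for U2af1l4. Sf3a2 (118 FPKM) and Plekhj1 (121 ± 11.1) start 492 bp apart and had similar means, and so had Sf3b3 (43.7) and Cog4 (36.8 ± 1.39), 257 bp apart. Snrpd2 (530.0) and its neighbour Qpctl (19.9 ± 1.88) differed widely, as did Srsf2 (291) and Mfsd11 (14.5 ± 0.824). The pairs were named after their values were seen, and no relation between neighbours was tested.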
